A study of Mus musculus with 19 samples.

Results

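The interleukin-1 system was followed in bulk RNA-seq of mouse bone marrow monocytes through 10 genes: the ligands Il1a, Il1b and Il18, the antagonist Il1rn, the receptor chains Il1r2 and Il1rap, and the inflammasome genes Nlrp3, Casp1, Casp4 and Gsdmd. They were taken by gene symbol from the 33559 rows of the deposited table, and all 10 were found. The table held 5 libraries of wild-type (WT) bone marrow monocytes: 3 labelled as treated with GCSF (G-CSF replicates 1 to 3) and 2 with no treatment (control replicates 1 and 2). G-CSF, granulocyte colony-stimulating factor, is the cytokine that drives neutrophil production and releases myeloid cells from the marrow. The sources used here do not state strain, age, dose, duration, route of treatment, cell sorting or pooling of animals, and no gene was targeted in these libraries. Nothing states that replicates came from separate animals, so p-values measure only the spread between these samples, which may be technical. The other 14 of the 19 samples, single-cell libraries of skin, were not analysed here. Values are FPKM as deposited by the authors, which divides the fragments of a gene by its length and by the size of the library, and the reads that could be recovered from them came to between 2923773 (control replicate 2) and 6988609 (G-CSF replicate 1) per library.

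Interleukin-1 is made by monocytes and macrophages after danger signals. Interleukin-1 beta and interleukin-18 are made as inactive precursors, which caspase-1 cuts inside an inflammasome, a protein complex that the sensor NLRP3 can start. Interleukin-1 alpha is active without this step. Caspase-4 (caspase-11 in mice) answers lipopolysaccharide in the cytosol, and both caspases cut gasdermin D, whose fragment opens pores through which the cytokines leave. Signalling needs the receptor IL1R1 together with the accessory chain encoded by Il1rap, while the decoy receptor encoded by Il1r2 and the antagonist encoded by Il1rn hold it back.

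In the comparison of G-CSF with control libraries, Il1b showed the largest difference of the 10 genes on the log2(FPKM + 1) scale, with a log2 fold change of 3.19. The inhibitors Il1rn (1.94) and Il1r2 (1.78), Casp4 (1.31) and Nlrp3 (1.26) came next, and Casp1 (0.93), Il18 (0.85), Il1rap (0.40), Gsdmd (0.30) and Il1a (0.14) followed. The order of near neighbours depends on the scale: by the ratio of means Casp4 (3.90-fold) stood above Il1r2 (3.77-fold), and Il18 (2.56-fold) above Nlrp3 (2.25-fold). In 9 of the 10 genes every G-CSF library lay above both controls, a separation that 20.0% of all 16791 genes tested showed in that direction; the exception was Il1a. At an unadjusted limma p under 0.05, 5 genes were higher (Il1b, Casp4, Il1rn, Il1r2 and Nlrp3) and 0 lower, against 7.90% and 4.76% of all genes tested. After Benjamini-Hochberg adjustment over all genes, limma called 0 of the 10, with a background of 0.00596% called higher, and voom on the recovered reads called 0 of the 9 it tested, with a background of 0.0204%. Over protein-coding genes alone, 1 of the 10, Il1b, was called higher (limma adjusted p = 0.0326), with a background of 0.285%. All 10 had a positive log2 fold change, against 56.3% of all genes tested, with a median of 1.09 against 0.08. Against control replicate 2 alone, limma called 5 of the 10 higher, with a background of 16.1%, and against control replicate 1 alone it called 0, with 3 higher at an unadjusted p under 0.05 and a background of 10.7%. The genes were chosen with earlier results of these data known, so these counts describe them and carry no test. Il1rap also reached the 1 FPKM needed for testing only in G-CSF libraries. In bulk RNA, a change in the share of a cell type and a change in RNA per cell cannot be told apart.

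**Figure D1:**
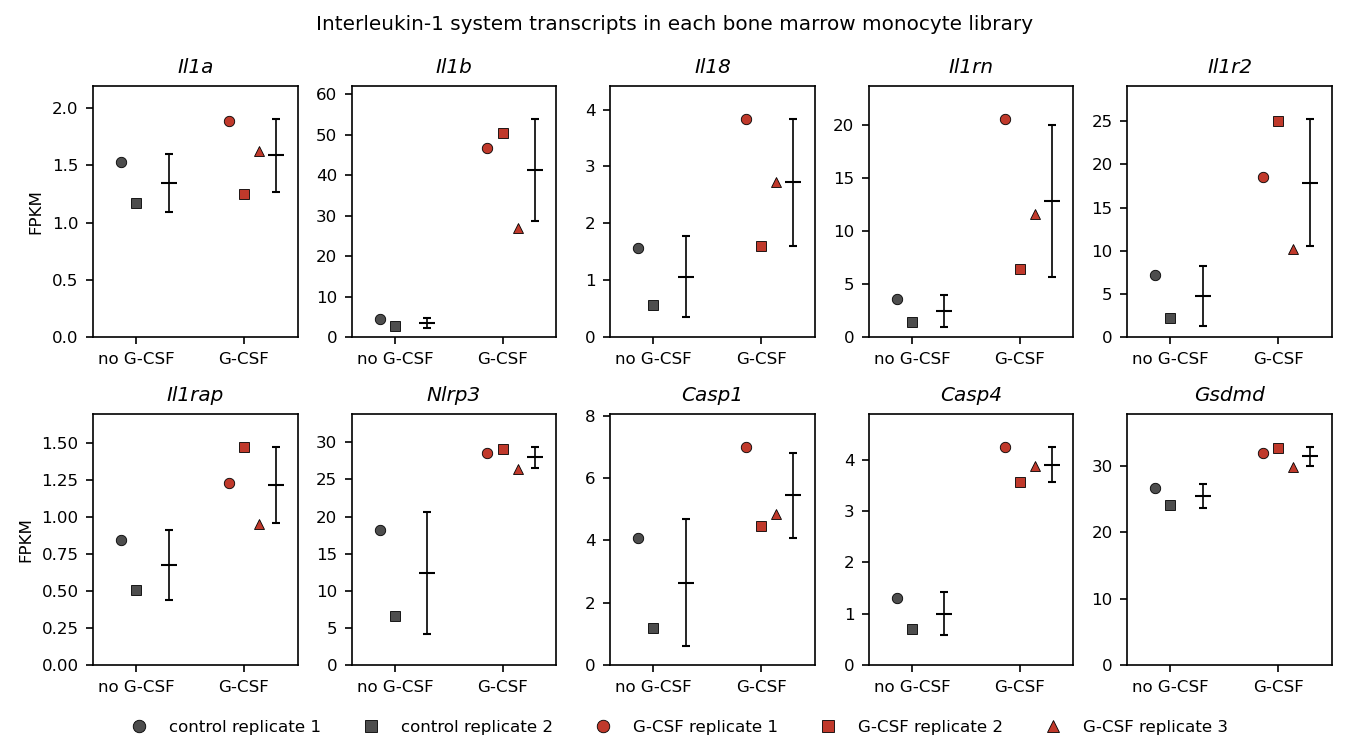
FPKM (vertical axes, from 0) of the 10 genes in each library, with controls in grey, G-CSF libraries in red, symbols for replicate numbers, and the mean ± SD of each group as a black bar beside the points. Control replicate 2 lies below control replicate 1 in every panel, and the groups overlap for Il1a, where G-CSF replicate 2 (1.25 FPKM) lies below control replicate 1 (1.53 FPKM).

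Il1b, encoding interleukin-1 beta, measured 4.40 and 2.72 FPKM in control replicates 1 and 2 and 46.7, 50.3 and 26.9 FPKM in G-CSF replicates 1, 2 and 3. The lowest G-CSF library was thus far above the highest control, and the controls differed 1.62-fold. The reads behind these values were 78 and 18 in the controls and 765, 933 and 384 with G-CSF. The mean went from 3.56 ± 1.19 FPKM (SD, n = 2) to 41.3 ± 12.6 FPKM (SD, n = 3), an 11.6-fold ratio of means. On the log2(FPKM + 1) scale the fold change was 3.19 (SE 0.37), with a limma unadjusted p of 0.000158 and an adjusted p of 0.139. Among all genes tested, Il1b stood at the 50.4th and 39.8th percentile of level in the controls and between the 89.4th and 95.04th with G-CSF. Leaving out control replicate 2 gave 2.92, and leaving out control replicate 1 gave 3.46. With protein-coding genes alone, the call held with either control left out (limma adjusted p = 0.0362 with replicate 1 alone, where 1.07% of genes were called higher, and 0.00339 with replicate 2 alone, where 27.2% were). It was lost without G-CSF replicate 1 (0.149), 2 (0.15) or 3 (0.0504), with log2 fold changes of 3.08, 3.02 and 3.46, a set of fits chosen after the data were seen.

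Il1a, encoding interleukin-1 alpha, is the neighbour of Il1b on chromosome 2. It measured 1.53 and 1.17 FPKM in the controls and 1.89, 1.25 and 1.63 FPKM with G-CSF. The groups overlapped, and the log2 fold change was 0.14 (SE 0.25), with a 95% interval from -0.48 to 0.76 and a limma adjusted p of 0.823. These levels rested on 8 to 32 reads per library. The lower end of the 95% interval for Il1b, 2.28, lay above the upper end for Il1a, and the difference between the genes was examined as a ratio. In GENCODE M21 (GRCm38), Il1a spans 129299610 to 129309972 and Il1b spans 129364570 to 129371139 of chromosome 2, both on the minus strand.

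The fold changes of these neighbours lay far apart, and the 250 bases before the RefSeq start of each are shown (GRCm38.p6, minus strand, written 5′ to 3′ along the gene, at chr2:129371140-129371389 for Il1b and chr2:129309973-129310222 for Il1a). Capitals mark matches to the motifs that were searched.
Il1b: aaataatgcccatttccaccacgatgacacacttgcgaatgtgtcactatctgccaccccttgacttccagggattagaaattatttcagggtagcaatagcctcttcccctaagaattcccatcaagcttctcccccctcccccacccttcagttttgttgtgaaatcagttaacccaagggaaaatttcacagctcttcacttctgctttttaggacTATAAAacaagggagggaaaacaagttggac
Il1a: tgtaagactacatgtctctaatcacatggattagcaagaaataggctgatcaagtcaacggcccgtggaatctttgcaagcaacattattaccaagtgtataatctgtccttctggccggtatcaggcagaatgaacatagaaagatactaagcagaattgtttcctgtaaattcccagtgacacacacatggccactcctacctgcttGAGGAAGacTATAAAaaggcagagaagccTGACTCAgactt
The motifs were NF-kB (GGG, any 2 bases, then TTTCC), STAT (TTCNNNGAA), AP-1 (TGANTCA), C/EBP (TTGCNNAA) and PU.1 (GAGGAAG), each on both strands, and the TATA box (TATAAA) on the gene's strand. Both windows held TATAAA, from base 31 to 26 before the start in Il1b and from base 32 to 27 in Il1a, a word found in 7.59% of the 32851 promoter windows of RefSeq. The Il1b window held none of the other words as spelled here. The Il1a window held GAGGAAG (in 10.6% of all windows) and TGACTCA, a match to the AP-1 word (6.75% of all windows). A match is a description of letters and not a binding site, and these windows leave out distal enhancers.

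Il18 (GENCODE M21 on GRCm38, as for each gene that follows, chr9:50554827-50581840, plus strand), encoding interleukin-18, measured 1.56 and 0.560 FPKM in the controls and 3.84, 1.60 and 2.72 FPKM with G-CSF. G-CSF replicate 2 lay only just above control replicate 1. The gene had few reads, 15 and 2 in the controls and 34, 16 and 21 with G-CSF, so its level in control replicate 2 is poorly measured. Its log2 fold change was 0.85, with an SE of 0.38 (limma adjusted p = 0.417), with a 95% interval from -0.08 to 1.78. It came to 0.49 if control replicate 2 was dropped.

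Il1rn (chr2:24336853-24351494, plus strand), encoding the interleukin-1 receptor antagonist, which occupies the receptor without signalling, measured 3.56 and 1.41 FPKM in the controls and 20.6, 6.45 and 11.6 FPKM with G-CSF. All 3 G-CSF libraries lay above both controls, but they spread over a wide range, with G-CSF replicate 2 the lowest. The reads numbered 183 and 27 in the controls and 981, 347 and 481 with G-CSF. On the log2 scale the difference was 1.94 (SE 0.52), with a 95% interval from 0.64 to 3.23, a limma unadjusted p of 0.0108 and an adjusted p of 0.294. With control replicate 1 alone the difference was 1.47, with a limma unadjusted p of 0.0720, and with replicate 2 alone 2.40. The gene has several start sites, used for secreted and intracellular forms of the protein, and values per gene do not separate them.

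Il1r2 (chr1:40074079-40125231, plus strand), encoding the decoy receptor that binds interleukin-1 without signalling, measured 7.22 and 2.27 FPKM in the controls and 18.5, 25.0 and 10.2 FPKM with G-CSF. The groups did not overlap, and here G-CSF replicate 2 was the highest library, the reverse of its place for Il1rn. Il1r2 differed by 1.78 on the log2 scale, with an SE of 0.53 (limma unadjusted p = 0.0159, adjusted p = 0.318). Against control replicate 1 alone it came to 1.12, with a limma unadjusted p of 0.0865, and against replicate 2 alone to 2.45. Without G-CSF replicate 2 the limma unadjusted p was 0.0556. Its window before the RefSeq start, which lies inside the longer GENCODE gene, held 1 match to the STAT word. This was TTCAAGGAA, from base 111 to 103 before the start. The word was found in 1 of the 13 windows searched for the genes followed here, and 7.02% of all windows hold it.

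Il1rap (chr16:26581704-26730117, plus strand), encoding the accessory chain that the signalling receptor needs, measured 0.843 and 0.508 FPKM in the controls and 1.23, 1.47 and 0.953 FPKM with G-CSF. The groups did not overlap, at levels near the lowest that were tested. Il1rap reached 1 FPKM only in G-CSF libraries, through which it entered the test. The log2 fold change was 0.40 (SE 0.26), with a 95% interval from -0.25 to 1.05 and a limma adjusted p of 0.529. Il1rap is a long gene, so these low levels still rested on 89 and 20 reads in the controls and 81 to 162 with G-CSF. The pseudocount of 1 is as large as the levels of this gene: with 0.1 in its place the log2 fold change was 0.78.

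Among the inflammasome genes, Nlrp3 (chr11:59541568-59566956, plus strand), encoding the sensor, had a high level. It measured 18.2 and 6.61 FPKM in the controls and 28.5, 29.1 and 26.4 FPKM with G-CSF. The G-CSF libraries lay close together and above both controls, and the controls differed 2.76-fold from each other. This was a log2 fold change of 1.26, with an SE of 0.43 (limma unadjusted p = 0.0264, adjusted p = 0.352). Against control replicate 1 alone it came to 0.59 and against replicate 2 alone to 1.93. Under quantile normalization the unadjusted limma p was 0.0699, and with the G-CSF libraries left out in turn it lay between 0.0592 and 0.0744.

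Casp1, encoding the caspase that cuts the interleukin-1 beta precursor, measured 4.08 and 1.20 FPKM in the controls and 7.01, 4.46 and 4.86 FPKM with G-CSF. The gap between the groups was small, from control replicate 1 at 4.08 FPKM to G-CSF replicate 2 at 4.46 FPKM. On the log2 scale the difference was 0.93, with an SE of 0.42 (limma adjusted p = 0.42), with a 95% interval from -0.10 to 1.95. Against control replicate 1 alone it came to 0.32 and against replicate 2 alone to 1.53. Whole reads were not recovered for this gene.

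Casp4, encoding the caspase of the lipopolysaccharide route, lies beside Casp1 on chromosome 9 (GENCODE M21: Casp1 from 5298517 to 5307265 and Casp4 from 5308828 to 5336783, plus strand). It measured 1.30 and 0.700 FPKM in the controls and 4.26, 3.58 and 3.89 FPKM with G-CSF. The G-CSF libraries lay close together and well above both controls. The reads behind them were 45 and 9 in the controls and 136, 129 and 108 with G-CSF. The mean went from 1.00 ± 0.428 FPKM (SD, n = 2) to 3.91 ± 0.345 FPKM (SD, n = 3), a 3.90-fold ratio of means. The log2 fold change was 1.31 (SE 0.25), with a limma unadjusted p of 0.00213, the second smallest of the 10 genes, and an adjusted p of 0.226. Against control replicate 1 alone it came to 1.09, against replicate 2 alone to 1.53 and, since the level is low, to 1.92 with a pseudocount of 0.1. Over protein-coding genes alone the limma adjusted p was 0.0835.

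The 250 bases before the first RefSeq start of Casp4 are shown because they held 2 matches to the NF-kB word, marked in capitals (GRCm38.p6, plus strand, chr9:5308599-5308848).
Casp4: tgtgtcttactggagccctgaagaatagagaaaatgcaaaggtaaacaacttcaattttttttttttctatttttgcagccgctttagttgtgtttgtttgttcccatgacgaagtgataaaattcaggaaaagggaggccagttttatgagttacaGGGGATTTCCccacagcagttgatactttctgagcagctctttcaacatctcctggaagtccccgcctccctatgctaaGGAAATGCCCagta
The first match, GGGGATTTCC, lies from base 93 to 84 before the start, and the second, GGAAATGCCC on the other strand, from base 14 to 5. Of all RefSeq windows, 1.41% hold this word. Of the 13 windows of the 9 genes with a RefSeq entry, 3 held it: both of Casp4, which overlap, and 1 of the 3 of Il1rn. GENCODE places the start of Casp4 at base 5308828, so the second match lies after that start.

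Gsdmd (chr15:75862327-75867408, plus strand), encoding gasdermin D, the pore protein of pyroptosis, stood at a percentile of 88.6 to 92.1 of level among all genes tested. It measured 26.7 and 24.1 FPKM in the controls and 32.0, 32.6 and 29.9 FPKM with G-CSF. The groups did not overlap in FPKM, but the difference was small. The log2 fold change was 0.30 (SE 0.24), with a 95% interval from -0.30 to 0.90 and a limma adjusted p of 0.604. By percentile, control replicate 1 (91.8) stood above G-CSF replicates 1 (91.1) and 3 (90.5), so by rank the groups overlapped. Under quantile normalization the log2 fold change was 0.13.

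**Figure D2:**
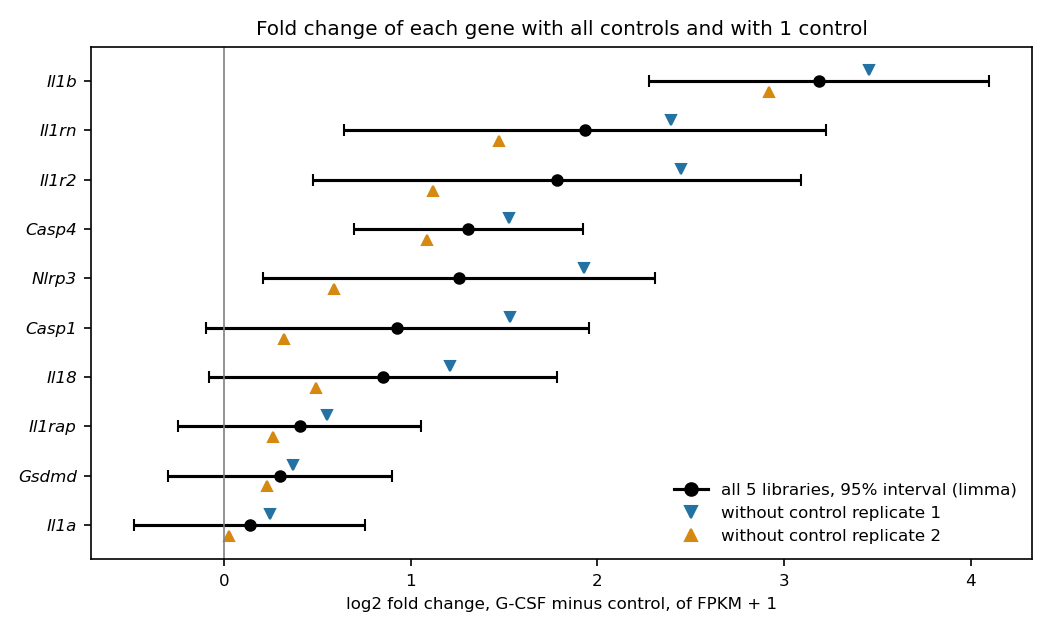
Log2 fold change of FPKM + 1 (horizontal axis, G-CSF minus control) of the 10 genes, with the limma 95% interval as a bar and the values without control replicate 1 or 2 as triangles. Every gene lies to the right of 0 with either control left out, and Nlrp3 moves from 0.59 to 1.93 and Casp1 from 0.32 to 1.53 between the settings.

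In FPKM, control replicate 2 was lower than control replicate 1 for all 10 genes, by 1.11-fold for Gsdmd to 3.41-fold for Casp1. The share of all genes that were lower in control replicate 2 is not given, so this may not be particular to these genes. By percentile among all genes tested, control replicate 2 stood higher for Il1a (18.6 against 17.5) and Il1rap (8.83 against 5.97), and lower for the others. Control replicate 2 also had the fewest reads. The marker genes of other cells differed between the same libraries. The summed FPKM of 12 neutrophil markers was 11836 in control replicate 1, 2221 in control replicate 2 and 4606 to 7116 with G-CSF, so the groups overlapped. Of these 12, 1 had every G-CSF library above both controls (Mmp8, 159 and 17.0 against 163 to 259 FPKM). Another 1 had every one below (Camp, 1187 and 402 against 66.8 to 208 FPKM). Of all genes tested, 20.0% and 11.9% did so. Of 10 classical monocyte markers, 8 had every G-CSF library above both controls and 1 had every one below, against 20.0% and 11.9% of all genes tested, and 7 were higher at an unadjusted limma p under 0.05, against 7.90%. Among them were Ccr2 (3.82 and 1.24 FPKM in the controls, 17.0 to 21.2 with G-CSF), Cd14 (4.97 and 7.33 against 51.8 to 145) and F13a1 (7.96 and 2.70 against 26.5 to 35.0), 3 genes picked after their values were seen. The summed FPKM of all 10, 3747 and 1407 in the controls and 3140 to 5740 with G-CSF, overlapped and was mostly Lyz2 (3509 and 1232 in the controls). The sum was 486 and 1474 in the controls and 726 to 1222 with G-CSF for 10 resident macrophage markers. It was 203 and 110 against 58.2 to 78.1 for 9 B cell markers, 1353 and 352 against 90.2 to 781 for 8 erythroid markers, and 308 and 789 against 362 to 574 for 6 platelet markers. It was 215 and 333 against 98.4 to 133 for 9 eosinophil and basophil markers, 33.0 and 49.4 against 26.1 to 41.7 for 7 dendritic cell markers, and 7.96 and 8.15 against 11.7 to 13.1 for 8 T and NK cell markers, 4 of which were at 0 in at least 1 library. At the same unadjusted threshold 3 of 5 tested platelet markers, 2 of 8 B cell markers, 2 of 8 eosinophil and basophil markers, 2 of 3 dendritic cell markers and 1 of 12 neutrophil markers were lower, against 4.76% of all genes tested. Of 9 tested resident macrophage markers 2 were higher and 1 lower, of 2 tested T and NK cell markers 1 was higher, and of 5 tested erythroid markers 0 passed in either direction. No marker was at 0 in all 5 libraries. The defining monocyte genes Csf1r (99.0 to 255 FPKM) and Ly6c2 (24.1 to 107 FPKM) were present in every library, beside the neutrophil antigen Ly6g (9.88 to 54.9 FPKM). The part of these markers in the differences above was not tested.

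Within a library, the ratio of transcripts does not depend on how the library was scaled. The 4 ratios examined each separated the groups with no overlap, and each had the smallest two-sided p that an exact permutation test of 3 against 2 libraries allows, 0.2 (0.2 after adjustment over the 4). No ratio could therefore pass a threshold of 0.05. Il1b exceeded Il1a by 2.88-fold and 2.33-fold in the controls and by 24.7-fold, 40.2-fold and 16.6-fold with G-CSF. The difference on the log2 scale was 3.30, and it was 2.97 to 3.61 with any library left out. Il1b exceeded its antagonist Il1rn by 1.24-fold and 1.93-fold in the controls and by 2.26-fold, 7.80-fold and 2.32-fold with G-CSF. The G-CSF replicates 1 and 3 lay only just above control replicate 2, and without G-CSF replicate 2 the log2 difference fell from 1.16 to 0.57.

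The decoy receptor exceeded the signalling receptor in every library. Il1r1, the signalling receptor, was below the level needed for testing, at 0.270 and 0.317 FPKM in the controls and 0.0548, 0.145 and 0.147 FPKM with G-CSF. These values came from 16 and 7 reads in the controls and 3, 9 and 7 with G-CSF, so the ratio carries a wide counting error. The Il1r2 to Il1r1 ratio was 26.7 and 7.15 in the controls and 337, 172 and 69.6 with G-CSF, the first of these over 3 reads of Il1r1. The Casp4 to Casp1 ratio was 0.320 and 0.585 in the controls and 0.608, 0.802 and 0.801 with G-CSF, where control replicate 2 and G-CSF replicate 1 were nearly equal. Its log2 difference fell from 0.76 to 0.32 without control replicate 1.

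**Figure D3:**
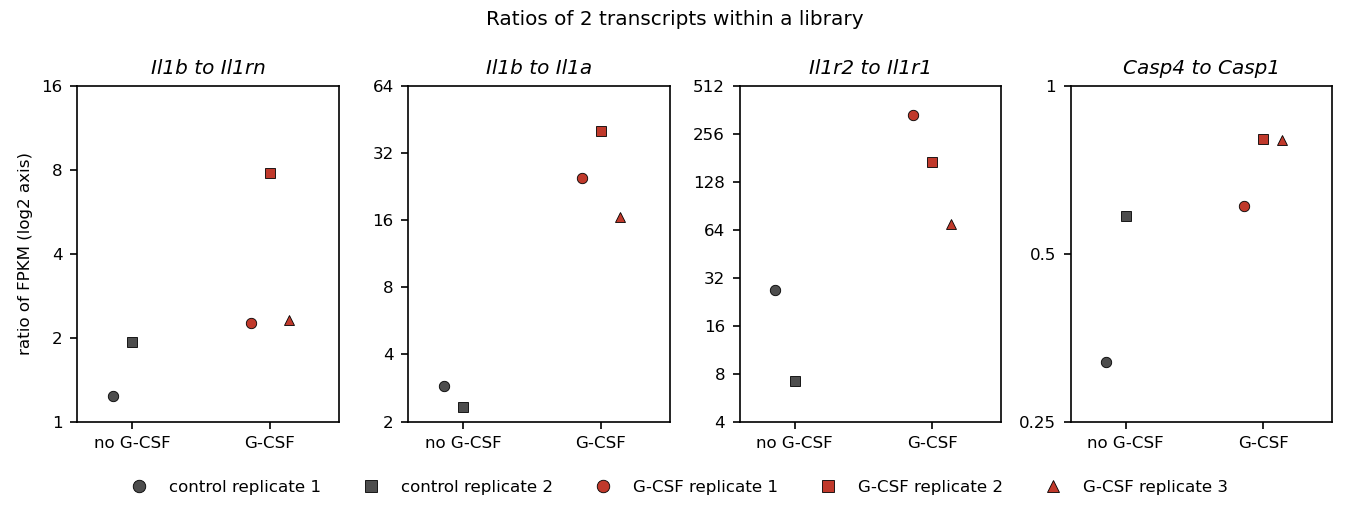
Ratio of the FPKM of 2 genes (vertical axes, log2 scale) in each library, controls in grey and G-CSF libraries in red, with symbols for replicate numbers. The Il1b to Il1a ratio separates the groups widely (2.33 to 2.88 against 16.6 to 40.2), while the Casp4 to Casp1 ratio of control replicate 2 (0.585) nearly reaches that of G-CSF replicate 1 (0.608).

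The rest of the pathway was read from a list of 60 further genes, of which 57 were in the table and 43 were tested. At an unadjusted limma p under 0.05, 12 were higher and 2 lower, against 7.90% and 4.76% of all genes tested, and 0 passed the adjustment over all genes. Their median log2 fold change was 0.47. Without control replicate 1 the count of higher genes was 26, where 26.7% of all genes tested were higher. It was 5 without G-CSF replicate 1 and 4 without G-CSF replicate 3, where 3.12% and 3.38% of all genes were.

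Among the other ligands and binding proteins, 2 of 6 in the table were tested. Il36g, encoding interleukin-36 gamma, a relative of interleukin-1 known chiefly from epithelia, measured 62.0 and 11.9 FPKM in the controls and 80.9, 77.4 and 55.7 FPKM with G-CSF. Control replicate 1 lay above G-CSF replicate 3, so the groups overlapped, and the log2 fold change was 1.32, with an SE of 0.68 (limma adjusted p = 0.455). Per length, Il36g exceeded Il1b in every library. Il18bp, encoding the soluble protein that neutralises interleukin-18, went the other way, with 12.2 and 13.2 FPKM in the controls and 5.61, 8.50 and 6.98 FPKM with G-CSF. All G-CSF libraries lay below both controls (a log2 difference of -0.78 with its SE of 0.26, limma unadjusted p = 0.0237, adjusted p = 0.343). The other 4, Il33, Il36a, Il36b and Il36rn, were below the level needed, at 0 to 0.303 FPKM.

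Of 7 other receptor genes in the table, 3 were tested, and 0 of these had a positive log2 fold change. Sigirr, encoding a receptor that dampens interleukin-1 and Toll-like receptor signalling, measured 2.54 and 3.03 FPKM in the controls and 1.19, 1.66 and 1.58 FPKM with G-CSF (a log2 difference of -0.62 with its SE of 0.24, limma unadjusted p = 0.0421, adjusted p = 0.383). Every G-CSF library lay below both controls. Il18rap, the accessory chain of the interleukin-18 receptor, ranged from 5.78 to 13.6 FPKM with G-CSF and measured 15.2 and 9.48 FPKM in the controls, with overlap. Il1rl2, the receptor for interleukin-36, measured 1.91 and 1.14 FPKM in the controls and 0.765 to 1.52 FPKM with G-CSF, also with overlap.

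Of 14 signalling genes downstream of the receptors, 12 had a positive log2 fold change (56.3% of all genes tested) and 3 were higher at an unadjusted limma p under 0.05 (7.90% of all genes tested), with 0 lower. These were the kinase Irak4, which starts the cascade, at 8.18 and 5.69 FPKM in the controls and 16.2, 11.9 and 16.9 FPKM with G-CSF, its inhibitory relative Irak3, and Nfkbiz, a nuclear regulator of NF-kB target genes. Their log2 fold changes were 1.01, 0.92 and 0.73 (each with an SE of 0.29), with limma adjusted p of 0.303, 0.334 and 0.384. The adaptor Myd88 had the highest level of the list. It measured 19.7 and 81.3 FPKM in the controls and 53.1 to 66.6 FPKM with G-CSF, so the controls lay on both sides of the G-CSF libraries.

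Of 15 other inflammasome sensors, adaptors and regulators tested, 13 had a positive log2 fold change, 4 were higher at an unadjusted limma p under 0.05 and 0 were lower, beside 56.3%, 7.90% and 4.76% of all genes tested. Mefv, encoding the inflammasome sensor pyrin, measured 8.50 and 2.57 FPKM in the controls and 27.6, 23.6 and 28.0 FPKM with G-CSF. The groups were well apart (a log2 difference of 2.23 with its SE of 0.44, limma unadjusted p = 0.00261, adjusted p = 0.244), beside 1.26 for Nlrp3; whether these 2 sensors differ was not tested. Txnip, encoding a thioredoxin-binding protein that can bind NLRP3, had the highest mean level of this list over the 5 libraries but not in the controls, where Pstpip1 (38.6 and 23.9 FPKM) exceeded it. Txnip measured 32.7 and 16.4 FPKM in the controls and 71.4, 103 and 54.3 FPKM with G-CSF. Nlrc4, the sensor that works with NAIP proteins, differed on the log2 scale by 1.09, with an SE of 0.30 (limma adjusted p = 0.298). The adaptor Pycard, named after its values were seen, measured 9.40 and 2.96 FPKM in the controls and 11.5, 11.4 and 10.6 FPKM with G-CSF. Reads of the Naip and Nlrp1 genes can be split among close copies, so their values are uncertain.

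Of 9 other caspase, pore and guanylate-binding genes tested, 9 had a positive log2 fold change and 5 were higher at an unadjusted limma p under 0.05, beside 56.3% and 7.90% of all genes tested. Among the 5, Gbp3 and Gbp7 reached 1 FPKM only in G-CSF libraries, and Gbp2 and Gm12250 in control replicate 1 but not 2. They entered the test through the G-CSF libraries, so the counts follow in part from the filter. Gbp2, a guanylate-binding protein that helps to expose bacterial lipopolysaccharide to caspase-11, measured 1.37 and 0.573 FPKM in the controls and 5.32, 2.90 and 4.36 FPKM with G-CSF (a log2 difference of 1.40 with its SE of 0.33, limma adjusted p = 0.258). Gbp7 and Gm12250, for which RefSeq gives the synonym Irgb10, had log2 fold changes of 0.74 (SE 0.25) and 1.00 (SE 0.26). Genes of these families have close copies, and their values are uncertain. Ninj1, encoding the protein that ruptures the membrane after gasdermin pores form, had the highest level, at 55.6 and 50.2 FPKM in the controls and 134, 77.8 and 142 FPKM with G-CSF. All G-CSF libraries lay above both controls (a log2 difference of 1.10 with its SE of 0.38, limma adjusted p = 0.355).

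**Figure D4:**
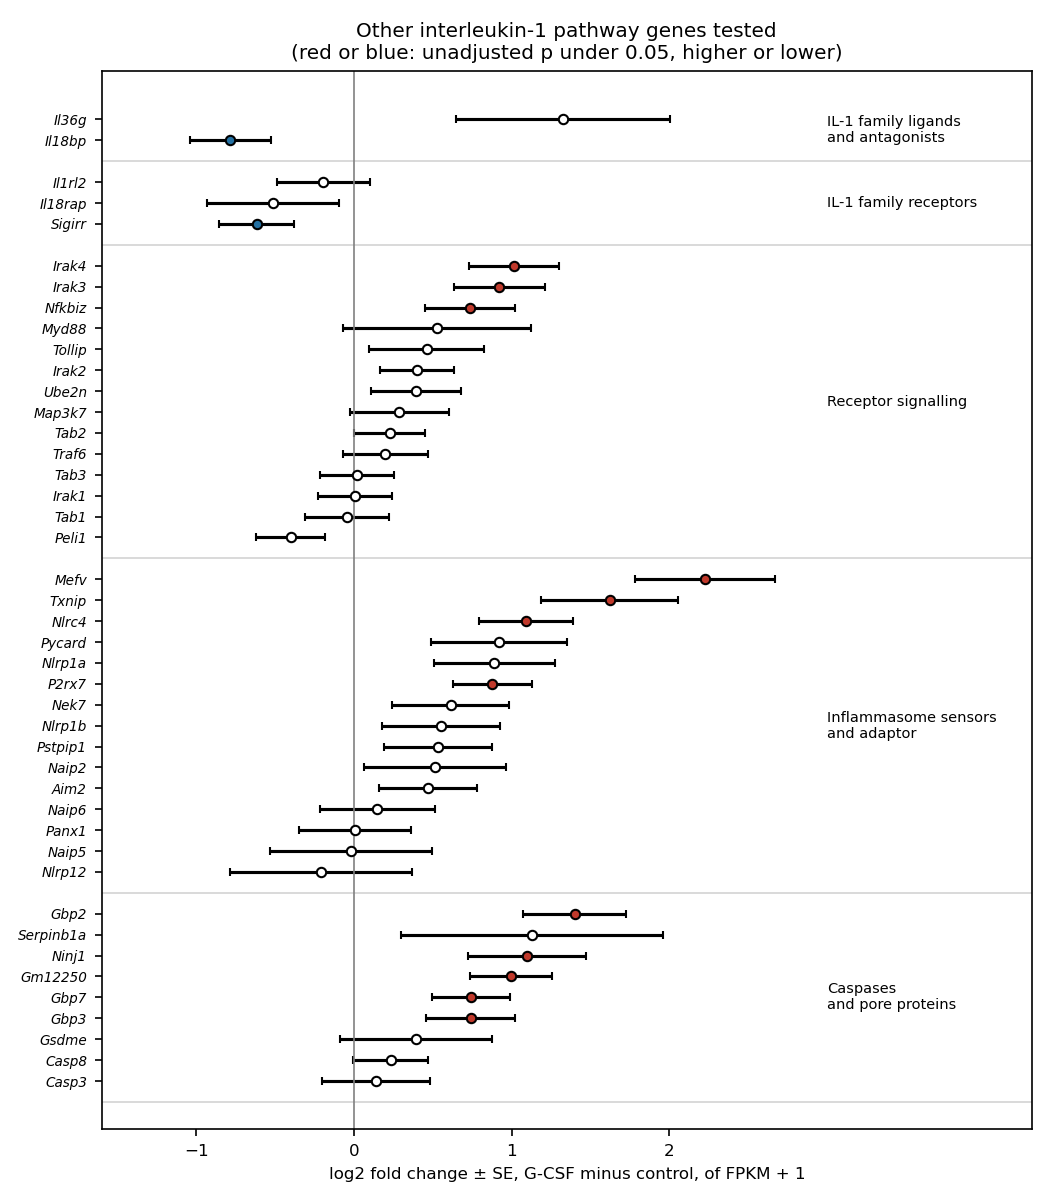
Log2 fold change of FPKM + 1 (horizontal axis, G-CSF minus control) with its SE for the 43 further pathway genes tested, grouped by role, red or blue where the unadjusted limma p was under 0.05. The 3 receptors lie left of 0 and Mefv (2.23) lies farthest to the right.

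Genes on the other strand overlap the spans of some of the 10, and whether their exons overlap was not examined. The sources used here do not state strandedness, so reads of any shared exons cannot be told apart. The genes on the other strand were low beside Il1b (Il1bos, 0.0968 to 1.48 FPKM) but not beside Il1a (Gm14023, 0.300 to 0.756 FPKM), Il1rap (Gm20319, 0.123 to 0.629 FPKM) or Il1r2 (Gm16894, 0.343 to 4.76 FPKM). Il1r2 also holds Gm37347 on its own strand, at 1.13 to 9.38 FPKM. Tex12 and Bco2, opposite Il18, ranged from 0 to 0.694 FPKM.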

How the data were processed

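Transcript levels were taken from 1 table of 5 bulk libraries deposited by the authors as FPKM, with 1 column per library. Per the submitters' processing notes the genome was mm10 and the named tool Cell Ranger 5.0.1, which serves single cells. For the bulk libraries the aligner, counter and annotation are not given in the sources used here. FPKM times GENCODE M21 exon length (GRCm38; 89.6% of rows matched by symbol) was a whole number of steps within 0.001 reads in all 5 libraries for 94.3% of matched rows, which gave the reads behind a value. Their sums are lower bounds of depth, since unmatched rows are left out, and limit the precision of low genes.

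The 16791 genes that reached 1 FPKM in 2 or more libraries entered a limma model of log2(FPKM + 1) (R 4.3.3, limma 3.58.1). Its moderated variance followed a trend with level, tests were two-sided, and p-values were adjusted by Benjamini and Hochberg over these genes at a threshold of 0.05. The pseudocount of 1 understates the change of low genes. The filter can admit a low gene through the G-CSF libraries alone. Intervals are limma's 95% intervals. Ratios were tested with exact permutation over samples. Both models were tested on simulated data. Replicates differed by more than sampling noise (chi-square per degree of freedom of the recovered reads of 99.2 between controls and 7.11 to 41.4 between G-CSF libraries). The members and lists were chosen with earlier results of these data known. All 10 members were named, and from each further list the 3 genes with the smallest p, that with the highest level and every tested receptor. Python 3.11.15, pandas 2.3.3, numpy 2.4.6, scipy 1.17.1 and matplotlib 3.10.9 were used. Promoter sequences are from RefSeq (GRCm38.p6).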

Additional observations from a re-analysis of the deposited data

How the results depend on the processing

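The alternatives were other pseudocounts, filters, scalings and limma settings, a replicate block, protein-coding genes only, voom, and each library left out in turn. G-CSF replicate 3 has no control of its number, so the block takes this library out of the comparison. Fold changes with the block therefore equal those without G-CSF replicate 3 (3.46 for Il1b in both). Leaving out each library with protein-coding genes only was added with the data in view. Fold changes of the 10 genes were positive in every alternative that tested them. A minimum FPKM of 5 left 5 of the 10, and voom could not test Casp1. Of those left, Il1b and Il1rn reached 5 FPKM only in G-CSF libraries, and Il1r2 in control replicate 1 but not 2. The median and the separation of groups under this filter therefore follow in part from the filter itself. Genes called higher over the whole table numbered 1. They numbered 3 with a pseudocount of 0.1, 2 with FPKM at least 5, 2 with limma without trend, 30 with protein-coding genes only and 3 with voom, and 0 with a pseudocount of 5, no filter, quantile normalization, median centring and the replicate block. Genes called lower numbered 0, but 3 with protein-coding genes only and 2 with voom. With a library left out, 0 to 2698 were called higher and 0 to 2002 lower. With protein-coding genes only the counts were 2863 and 1738 without control replicate 1, 113 and 53 without control replicate 2, and 0 to 6 and 0 to 1 without a G-CSF library. The median of the 10 genes, 1.09, was 0.52 with a pseudocount of 5, 1.78 for the 5 genes left with FPKM at least 5 and 0.54 without control replicate 2 (0.54 to 1.53 with a library left out). The count at an unadjusted p under 0.05 ranged from 3 to 7 with a library left out and from 5 to 8 when this was done with protein-coding genes only, and that of groups without overlap was 5 of 5 with FPKM at least 5. Groups without overlap numbered 8 of 10 with quantile normalization, for which no share of all genes is given. Of the further pathway genes, 7 were higher and 1 lower with FPKM at least 5, and 1 was lower with no filter. With a library left out, 4 to 26 were higher and 0 to 3 lower, and with protein-coding genes only 7 to 27 and 0 to 4. The share of all genes higher at an unadjusted p under 0.05 also moved between these fits, where it is given above. No such share is given with no filter, FPKM at least 5, the replicate block, or protein-coding genes only and a library left out. Nor is one given without G-CSF replicate 2, or for lower genes with any library left out. The member and pathway counts concerned therefore stand without a background and only describe these genes. Samples of the same number correlated at -0.0706 and -0.231 after group means were removed. With 2 controls, their deviations from the group mean are mirror images, so this check cannot decide whether the numbers pair samples. With the replicate block 3 pathway genes were higher and 0 lower, and no share of all genes is given beside these counts. Without control replicate 1, which leaves 1 control assumed to vary like the G-CSF group, Il1b, Il1r2, Casp1, Casp4 and Nlrp3 were called higher (limma adjusted p from 0.0142 to 0.0337), as were 16.1% of all genes tested. The cause of these shifts was not tested. Depth limits Il18 and Il1a most.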
